A study of Mus musculus with 5 samples.

Results

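The cholesterol and fatty acid synthesis genes described here are a list of 31 genes chosen by symbol, out of 19198 genes in the deposited table of mouse small intestine. They comprise 19 enzymes of the sterol pathway, 6 enzymes of fatty acid synthesis and 6 regulators and sterol transport proteins. All 31 symbols had a row, and all 31 passed the filter on low counts, as did 14352 genes in all. The Cre-positive group was 2 mice that carried Math1Cre*PR together with mAchR4 fl/fl. The Cre-negative group was 3 mAchR4 fl/fl littermates without the Cre. All 5 mice, Cre-negative ones included, carried the floxed allele of Chrm4, the gene of the muscarinic acetylcholine receptor M4, and all received RU486 at 10 mg/kg by daily gavage over 4 days. RU486 is an antagonist of the progesterone and glucocorticoid receptors and activates Cre fused to a progesterone receptor domain. Ages and sexes were not given in the sources used here. Math1, also called Atoh1, marks the secretory lineage of the gut, and the absorptive cells that lie outside this lineage are part of the same tissue. No Cre-positive mice with an intact receptor gene were among the samples, so Cre activity and loss of the receptor cannot be told apart.

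RNA came from whole small intestine after ribosomal RNA depletion, 1 library per mouse, with 4681119 to 6618204 estimated counts. Chrm4 itself had 13 and 5 counts in Cre-positive libraries 1 and 2, against 4, 20 and 4 counts in Cre-negative libraries 1, 2 and 3, so the groups overlapped and these low counts do not check the genotype labels. The tissue label was met by the enterocyte markers, 12 of 12 of which were tested, with a summed level of 8922 and 19390.0 CPM (counts scaled to library size, the unit of all levels here) in Cre-positive libraries and 10829 to 19380.0 CPM in Cre-negative libraries. The libraries differed within groups in their makeup. Summed markers of proximal small intestine were 323 and 1577 CPM in Cre-positive libraries 1 and 2, against 847, 318 and 2229 CPM in Cre-negative libraries 1, 2 and 3. B and plasma cell markers reached 682 CPM in Cre-positive library 1, against 25.6 CPM in Cre-positive library 2 and 16.5 to 40.9 CPM in Cre-negative libraries. Goblet cell markers ran along the groups as well, and summed to 5080.4 and 2281 CPM in Cre-positive libraries, against 574 to 1364 CPM in Cre-negative libraries. All 7 goblet cell markers tested had a higher fitted level in Cre-positive libraries. For 6 of them (85.7%) the groups did not overlap, against 18.0% of all genes tested, and 0 were called by edgeR at an adjusted p under 0.05. In such bulk tissue, fewer cells of a type and less RNA per cell cannot be told apart.

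Cells make cholesterol from acetyl-CoA through mevalonate, isoprenoids, squalene and lanosterol, and they make fatty acids from the same acetyl-CoA through malonyl-CoA. The transcription factors SREBP-1 and SREBP-2 drive both pathways. When sterols are scarce, Scap escorts them out of the endoplasmic reticulum for cleavage, and when sterols are plentiful, Insig proteins hold Scap back. In the small intestine, synthesis runs beside uptake of dietary and biliary cholesterol and is known to be active in crypt cells and in the distal gut.

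The promoters of 4 enzymes are printed to show the letters that this control is known to act on, from genes that were high in the same libraries and from genes that were not (Hmgcs1 and Fasn against Ebp and Sc5d). Each run is the 250 bases before the RefSeq gene start in GRCm38.p6, 5′ to 3′ on the strand of the gene. Capitals mark matches on either strand to TCACNCCAC (a sterol regulatory element), CCAAT (the box bound by NF-Y, a known partner of SREBP) or CACGTG (an E-box). A CCAAT box on the other strand reads ATTGG.
Hmgcs1: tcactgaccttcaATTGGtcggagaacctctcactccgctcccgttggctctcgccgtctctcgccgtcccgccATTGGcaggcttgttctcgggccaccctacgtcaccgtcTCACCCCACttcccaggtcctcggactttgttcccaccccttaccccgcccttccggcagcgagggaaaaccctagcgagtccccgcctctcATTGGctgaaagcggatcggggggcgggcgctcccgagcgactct
Ebp: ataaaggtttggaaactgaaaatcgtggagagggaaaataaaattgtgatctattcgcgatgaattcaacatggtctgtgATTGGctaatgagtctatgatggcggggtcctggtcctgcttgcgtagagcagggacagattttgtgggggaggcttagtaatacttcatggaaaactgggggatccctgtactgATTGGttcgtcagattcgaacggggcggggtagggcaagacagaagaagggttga
Sc5d: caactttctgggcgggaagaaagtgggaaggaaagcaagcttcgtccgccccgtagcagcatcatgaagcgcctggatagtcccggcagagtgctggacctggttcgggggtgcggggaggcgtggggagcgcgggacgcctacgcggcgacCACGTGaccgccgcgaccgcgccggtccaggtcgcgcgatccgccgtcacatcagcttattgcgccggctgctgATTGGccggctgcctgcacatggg
Fasn: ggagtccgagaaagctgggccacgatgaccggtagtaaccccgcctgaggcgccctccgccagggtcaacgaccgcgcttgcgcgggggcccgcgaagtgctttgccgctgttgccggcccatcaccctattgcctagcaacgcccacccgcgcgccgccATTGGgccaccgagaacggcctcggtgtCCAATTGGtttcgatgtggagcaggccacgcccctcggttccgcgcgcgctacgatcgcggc
The Hmgcs1 window lies at chr13:119690101-119690350 on the plus strand and holds 1 sterol regulatory element and 3 CCAAT boxes. The Ebp window at chrX:8193513-8193762, minus strand, holds 2 CCAAT boxes. The Sc5d window at chr9:42264301-42264550, minus strand, holds 1 CCAAT box and 1 E-box. The Fasn window at chr11:120824548-120824797, minus strand, holds 3 CCAAT boxes, of which a pair overlap in CCAATTGG.

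RefSeq promoter entries matched 25 of the 31 genes by symbol, with 33 entries in all, and Sqle, Fdps, Fdft1, Stard4, Scd1 and Scd2 had none. A CCAAT box was in 15 of 19 windows of sterol enzymes (78.9%), covering 15 of 16 enzymes with an entry, against 33.8% of all 32851 windows of this length. In fatty acid enzymes it was in 1 of 4 windows (25%). The sterol regulatory element was in 1 of 19 windows of sterol enzymes (5.26%), that of Hmgcs1, against 1.05% of all windows. The E-box was in 3 of 19 windows of sterol enzymes (15.8%), against 6.02% of all windows. These are letter matches in a fixed window and say nothing of binding in these mice.

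No gene of the pathway was called as different between Cre-positive and Cre-negative small intestine. By edgeR's quasi-likelihood test with Benjamini-Hochberg adjustment, 0 of the 31 genes were called at an adjusted p under 0.05, as were 0% of all 14352 genes tested. At an unadjusted p under 0.05, 0 of the 31 genes passed, against 3.38% of all genes (1.60% higher and 1.78% lower in Cre-positive libraries). DESeq2 also called 0 of the 31, against 0.132% of all genes, and limma-voom called 0 of the 31 and 0% of all genes. The lowest edgeR adjusted p among the 31 was 0.977, which was also the lowest over all 14352 genes tested. Many genes share this value, so it does not rank them. The lowest unadjusted p among the 31 was 0.074 by edgeR, for Pmvk. Cre-positive and Cre-negative libraries did not overlap for 3 genes that were higher in Cre-positive libraries (Pmvk, Ggps1 and Ebp) and for 1 that was lower (Scap). Those 4 of 31 are 12.9%, against 18.0% of all genes tested (7.89% higher and 10.2% lower), so non-overlap was no more frequent in the pathway than in the background. The fitted log2 fold change was positive for 21 of 31 genes and negative for 10, with a median of 0.14, against 45.5% positive and a median of -0.04 over all genes tested. With 2 mice against 3 the fit had 3 residual degrees of freedom. In simulated data of this design it called 45 of 95 genes changed 4-fold, 1 of 98 genes changed 2-fold and 9 unchanged genes. These rates may not hold for the real libraries. There the goblet cell marker Clca1, with a log2 fold change of 3.32 ± 0.68 (SE), was not called (edgeR adjusted p 0.977).

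**Figure D1:**
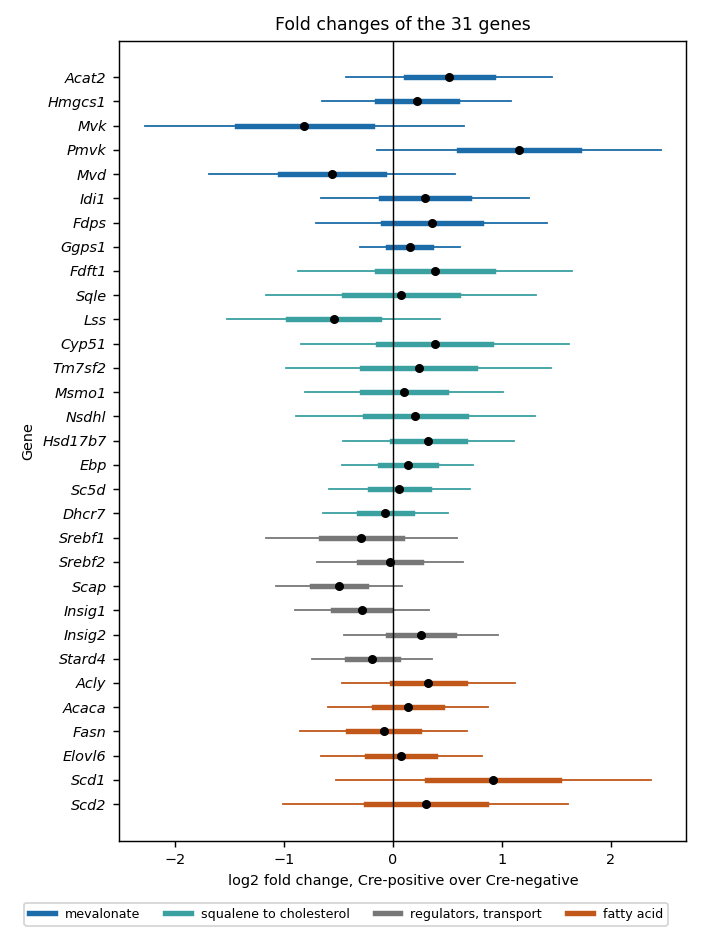
Log2 fold change of each of the 31 genes, Cre-positive over Cre-negative, from the edgeR fit (black points), with its standard error (thick bars) and 95% interval (thin bars), coloured by branch. Every 95% interval includes 0, and the intervals of Mvk and Scd1 are the widest.

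The mevalonate branch turns acetyl-CoA into isoprenoid units, and the levels of most of its enzymes varied within both groups. The deposited counts of Acat2, Hmgcs1 and Idi1 were not whole in any of the 5 libraries, and the sources do not say how the fractions arose. Acat2, the cytosolic thiolase that condenses acetyl-CoA, had 22.8 and 13.5 CPM in Cre-positive libraries 1 and 2, against 7.67, 17.2 and 12.9 CPM in Cre-negative libraries 1, 2 and 3. Cre-positive library 1 was highest and Cre-negative library 1 lowest, and the groups overlapped. Its log2 fold change was 0.52 ± 0.40 (SE), with an adjusted p of 0.977 by edgeR, and was 0.12 without Cre-positive library 1. Hmgcs1 (chromosome 13, 119690379 to 119708260, plus strand, GRCm38), the HMG-CoA synthase whose promoter is printed above, had 235 and 144 CPM in Cre-positive libraries, against 138, 236 and 116 CPM in Cre-negative libraries. Cre-positive library 1 and Cre-negative library 2 were nearly equal at the top, and the other 3 libraries lay well below them. It averaged 189.8 ± 64.1 CPM in Cre-positive libraries and 163 ± 64.4 CPM in Cre-negative libraries (SD, n = 2 and 3), a log2 fold change of 0.22 ± 0.37 (SE) with an edgeR adjusted p of 0.977.

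The kinases and the decarboxylase that act on mevalonate were low, with at most 53 counts in any library, so their values carry more counting error. Pmvk, phosphomevalonate kinase (chromosome 3, 89454541 to 89469013, plus strand), had 25 and 14 counts in Cre-positive libraries, against 7, 10 and 7 counts in Cre-negative libraries. In CPM these were 4.84 and 2.18 in Cre-positive libraries, against 1.68, 1.85 and 1.14 in Cre-negative libraries. The groups did not overlap, though Cre-positive library 2 lay close to Cre-negative library 2. Its log2 fold change was 1.16 ± 0.55 (SE; 95% interval -0.15 to 2.46), the largest among the 31, with an edgeR adjusted p of 0.977, and it ranged from 0.52 to 1.67 when 1 library was left out. Mvk, mevalonate kinase, had 14 and 21 counts in Cre-positive libraries, against 18, 50 and 14 counts in Cre-negative libraries, a log2 fold change of -0.81 ± 0.62 (SE; edgeR adjusted p 0.977) that was -0.12 without Cre-negative library 2. Mvd, the decarboxylase that yields isopentenyl diphosphate, had 24 and 31 counts in Cre-positive libraries, against 32, 53 and 22 counts in Cre-negative libraries, a log2 fold change of -0.56 ± 0.48 (SE; edgeR adjusted p 0.977) that was -0.23 without Cre-negative library 2. For Mvk and Mvd, Cre-negative library 2 was highest, Cre-negative library 1 came next and Cre-negative library 3 was lowest, and the groups overlapped.

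Idi1, the isomerase of isopentenyl diphosphate, had 99.3 and 53.8 CPM in Cre-positive libraries, against 50.6, 93.0 and 43.3 CPM in Cre-negative libraries. Fdps, farnesyl diphosphate synthase, had 21.5 and 12.1 CPM in Cre-positive libraries, against 8.63, 20.4 and 10.1 CPM in Cre-negative libraries. Both repeated the order seen in Hmgcs1 at the top, with Cre-positive library 1 and Cre-negative library 2 above the rest. Their log2 fold changes were 0.29 ± 0.40 for Idi1 and 0.36 ± 0.45 for Fdps (SE). Ggps1, which makes geranylgeranyl diphosphate and so leads away from sterols, was level by comparison, with 59.2 and 54.9 CPM in Cre-positive libraries, against 50.1, 50.6 and 52.9 CPM in Cre-negative libraries. Its groups did not overlap, but its log2 fold change was 0.16 ± 0.20 (SE).

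From squalene onwards, the early enzymes varied in the same way. Fdft1, squalene synthase, had 16.3 and 9.02 CPM in Cre-positive libraries, against 8.63, 15.8 and 4.56 CPM in Cre-negative libraries, a log2 fold change of 0.39 ± 0.53 (SE). Its exons overlap those of Ctsb, an abundant protease gene, on the opposite strand, and the counts of Fdft1 and of Lss were not whole in any of the 5 libraries. Sqle, squalene epoxidase, the first oxygen-requiring step of the pathway (chromosome 15, 59315077 to 59331192, plus strand), had 80.9 and 39.9 CPM in Cre-positive libraries, against 47.7, 95.1 and 29.0 CPM in Cre-negative libraries. Cre-negative library 2 was highest and Cre-negative library 3 lowest, so that the Cre-negative range enclosed both Cre-positive libraries. Sqle averaged 60.4 ± 28.9 CPM in Cre-positive libraries and 57.2 ± 34.1 CPM in Cre-negative libraries (SD, n = 2 and 3), a log2 fold change of 0.08 ± 0.52 (SE; 95% interval -1.16 to 1.32) with an edgeR adjusted p of 0.991. Lss, which closes the ring to lanosterol, had 17.0 and 19.4 CPM in Cre-positive libraries, against 23.2, 41.0 and 15.6 CPM in Cre-negative libraries, a log2 fold change of -0.54 ± 0.42 (SE; edgeR adjusted p 0.977) that was -0.089 without Cre-negative library 2. Cre-negative library 2 stood above the other 4 libraries for Lss, and Cre-positive library 1 did not share its level.

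The enzymes that strip methyl groups from lanosterol and reduce its double bonds covered a wide range of levels. Cyp51, lanosterol demethylase, had 97.7 and 39.5 CPM in Cre-positive libraries, against 43.9, 83.6 and 29.8 CPM in Cre-negative libraries. Its log2 fold change of 0.39 ± 0.52 (SE) was -0.38 without Cre-positive library 1 and 0.93 without Cre-positive library 2. Msmo1, the sterol C4 methyl oxidase, had 150.4 and 90.3 CPM in Cre-positive libraries, against 108, 159 and 69.7 CPM in Cre-negative libraries, a log2 fold change of 0.10 ± 0.38 (SE). Nsdhl, which works with Msmo1 on the same carbon, had 24.96 and 14.9 CPM in Cre-positive libraries, against 11.7, 28.2 and 11.7 CPM in Cre-negative libraries, a log2 fold change of 0.21 ± 0.47 (SE). For all of these genes, the pair of Cre-positive library 1 and Cre-negative library 2 stood above the other libraries. Hsd17b7, the ketosteroid reductase of the same complex, averaged 84.7 ± 25.8 CPM in Cre-positive libraries and 67.5 ± 23.6 CPM in Cre-negative libraries (SD, n = 2 and 3), a log2 fold change of 0.33 ± 0.33 (SE; edgeR adjusted p 0.977) that was 0.0076 without Cre-positive library 1. Tm7sf2, a sterol C14 reductase, was among the lowest at 5.42 and 4.97 CPM in Cre-positive libraries, against 5.27, 6.12 and 1.96 CPM in Cre-negative libraries, a log2 fold change of 0.24 ± 0.52 (SE). It shares exon bases with Vps51 on the same strand.

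The last steps did not share that order. Ebp, the sterol isomerase, had 12.6 and 13.5 CPM in Cre-positive libraries, against 12.2, 11.7 and 11.7 CPM in Cre-negative libraries. Its groups did not overlap, yet its highest library was only 1.16 times its lowest, and its log2 fold change was 0.14 ± 0.26 (SE). Sc5d, lathosterol oxidase, had 115 and 205 CPM in Cre-positive libraries, against 153, 153 and 154 CPM in Cre-negative libraries, a log2 fold change of 0.06 ± 0.27 (SE). The Cre-negative mice were nearly identical for Sc5d, and the Cre-positive mice lay on either side of them. Dhcr7, which reduces 7-dehydrocholesterol to cholesterol, had 28.4 and 37.8 CPM in Cre-positive libraries, against 39.8, 33.7 and 30.95 CPM in Cre-negative libraries, a log2 fold change of -0.07 ± 0.24 (SE).

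**Figure D2:**
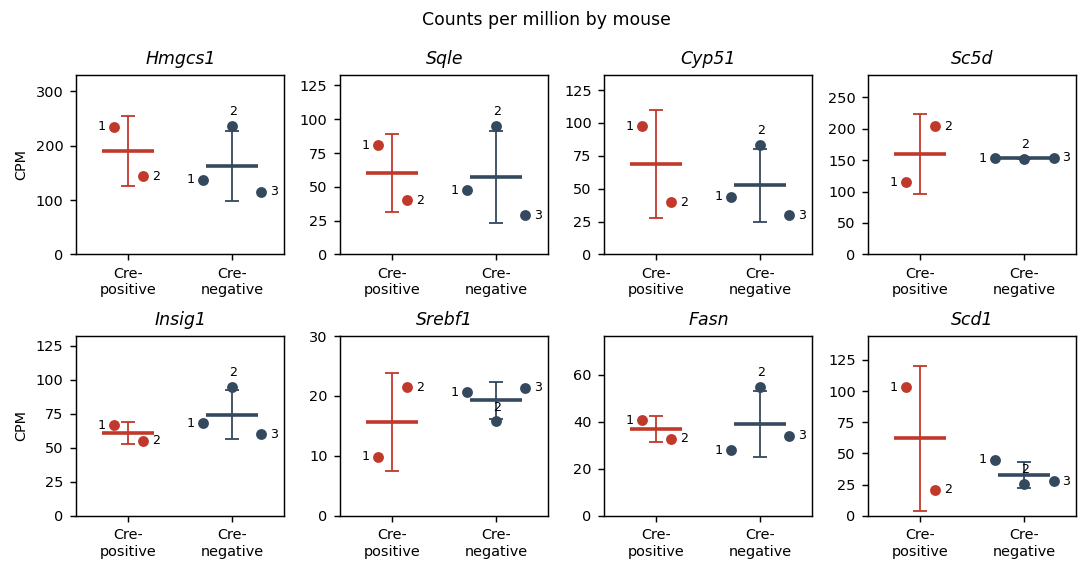
CPM of 8 of the genes in each mouse (points, numbered by library), with the group mean (horizontal line) and SD (error bars), n = 2 Cre-positive and n = 3 Cre-negative. Hmgcs1, Sqle and Cyp51 are high in Cre-positive library 1 and Cre-negative library 2, Sc5d is nearly equal in the 3 Cre-negative libraries, and Scd1 is highest in Cre-positive library 1.

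Across the sterol enzymes the clearest pattern ran between mice and not between genotypes. Cre-positive library 1 and Cre-negative library 2 were the highest pair for 11 of 19 sterol enzymes (57.9%), against 10.1% of all genes tested: Acat2, Hmgcs1, Idi1, Fdps, Fdft1, Sqle, Cyp51, Tm7sf2, Msmo1, Nsdhl and Hsd17b7. The same pair led for 4 of 6 fatty acid enzymes (66.7%), Acly, Acaca, Fasn and Scd2, and for Srebf2 among the 6 regulators. Cre-negative library 3 was lowest for 13 of 19 sterol enzymes, against 2430 of all 14352 genes tested. The pair was chosen after the values were seen, so these counts describe the 5 libraries and carry no test. The median ratio of the highest to the lowest library was 2.49 for sterol enzymes and 2.03 for fatty acid enzymes, against 1.90 for the 12213 genes in the same range of levels. Summed over the 19 sterol enzymes, the level was 1101 and 829 CPM in Cre-positive libraries 1 and 2, against 777, 1159.7 and 653 CPM in Cre-negative libraries 1, 2 and 3.

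**Figure D3:**
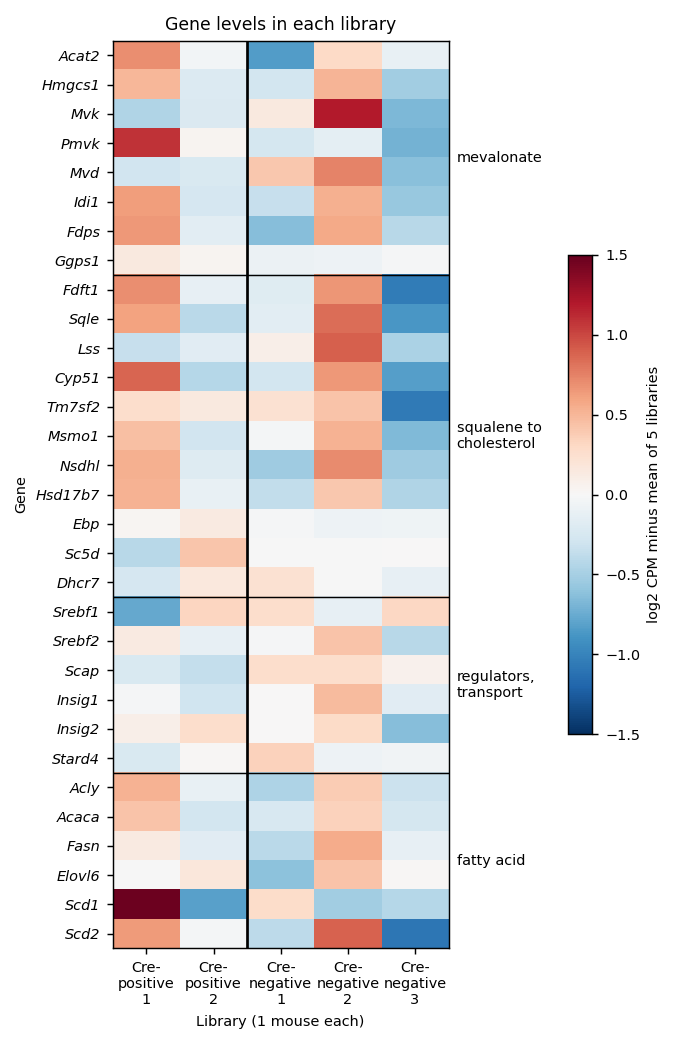
Log2 CPM of each of the 31 genes in each library, minus the gene's mean over the 5 libraries (colour scale), with Cre-positive libraries left of the vertical line and genes in pathway order. Most sterol and fatty acid enzymes are red in Cre-positive library 1 and Cre-negative library 2, while Ggps1, Ebp, Sc5d and Dhcr7 do not follow, Mvk, Mvd and Lss are below their mean in Cre-positive library 1, Pmvk and Scd1 are below theirs in Cre-negative library 2, and Elovl6 is near its mean in Cre-positive library 1.

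The same libraries also differed in markers of gut region and cell type. The mean log2 deviation of the 19 sterol enzymes from their mean over the libraries was 0.31 and -0.10 in Cre-positive libraries 1 and 2, against -0.15, 0.45 and -0.51 in Cre-negative libraries 1, 2 and 3. For the 12 enterocyte markers it was -1.46 and 0.83 in Cre-positive libraries, against 0.33, -0.58 and 0.87 in Cre-negative libraries. For the 10 markers of proximal small intestine it was -2.26 and 0.89 in Cre-positive libraries, against 0.36, -0.55 and 1.56 in Cre-negative libraries. Cre-positive library 1 and Cre-negative library 2, where most sterol enzymes were high, were the lowest pair for 9 of 12 enterocyte markers and 8 of 10 proximal markers. The lists share 3 genes (Apoa4, Fabp1 and Lct). The enterocyte markers Anpep, Epcam and Cdh1 and the proximal markers Slc40a1 and Cybrd1 did not follow. Slc40a1 ran the other way and was highest in that pair. It had 234 and 25.2 CPM in Cre-positive libraries, against 19.4, 96.7 and 8.63 CPM in Cre-negative libraries. The 8 tested markers of distal small intestine deviated by 0.95 and -0.17 in Cre-positive libraries, against 0.32, 0.58 and -1.67 in Cre-negative libraries, lowest in the library that was also lowest for most sterol enzymes. The 9 tested markers of crypt stem and cycling cells deviated by 0.85 and -0.01 in Cre-positive libraries, against -0.88, -0.38 and 0.42 in Cre-negative libraries. Of the 9, 7 were highest in Cre-positive library 1 and 4 were lowest in Cre-negative library 2. Smooth muscle markers were highest in Cre-negative library 1 for 10 of 10 genes. They summed to 1313 and 1576 CPM in Cre-positive libraries, against 4052, 2040 and 1571 CPM in Cre-negative libraries. The part of gut region and cell makeup in the levels of the sterol and fatty acid genes was not tested.

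**Figure D4:**
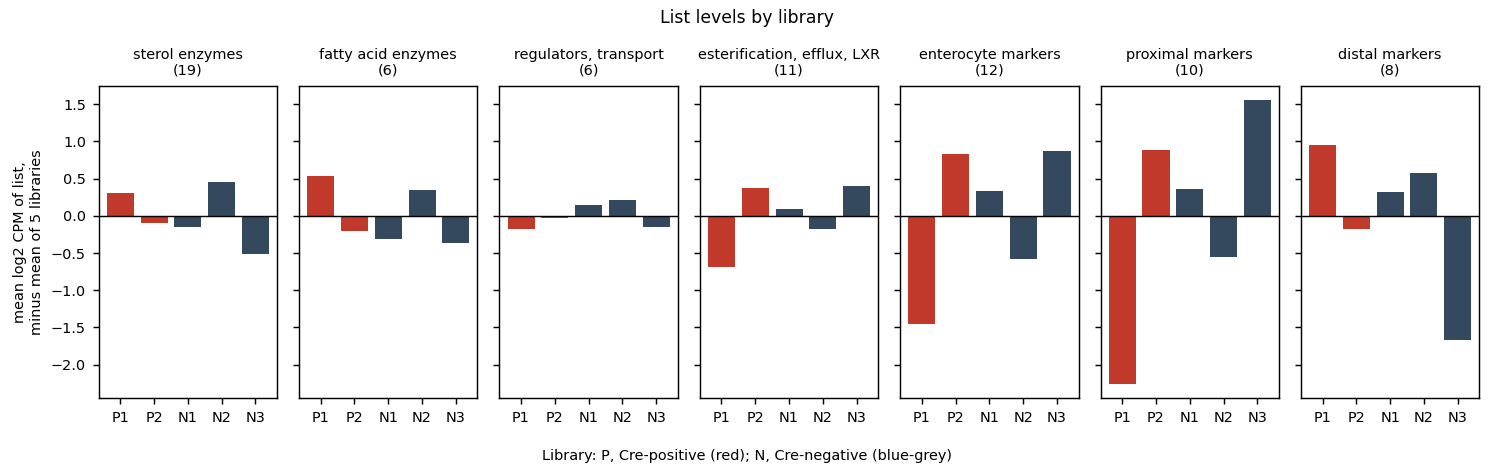
Mean log2 CPM of each gene list in each library, minus its mean over the 5 libraries, with Cre-positive libraries (P1, P2; red) left of Cre-negative libraries (N1 to N3; blue-grey) and the number of genes in parentheses. Sterol and fatty acid enzymes are above 0 in P1 and N2, where enterocyte and proximal markers are below 0.

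Of the regulators, none passed the test, and 5 of 6 had negative fold changes, with a median of -0.24. Srebf2, which encodes SREBP-2, the main activator of sterol enzymes (chromosome 15, 82147181 to 82205379, plus strand), had 77.2 and 64.7 CPM in Cre-positive libraries, against 69.5, 94.9 and 52.6 CPM in Cre-negative libraries. The Cre-negative range enclosed both Cre-positive libraries. It averaged 70.9 ± 8.87 CPM in Cre-positive libraries and 72.3 ± 21.3 CPM in Cre-negative libraries (SD, n = 2 and 3), a log2 fold change of -0.03 ± 0.28 (SE; edgeR adjusted p 0.993). Srebf1, which encodes SREBP-1, the factor tied to fatty acid synthesis (chromosome 11, 60199089 to 60222581, minus strand), had 9.87 and 21.5 CPM in Cre-positive libraries, against 20.6, 15.8 and 21.3 CPM in Cre-negative libraries. Its lowest libraries, Cre-positive library 1 and Cre-negative library 2, were the ones in which most of the enzymes were highest. Its log2 fold change was -0.29 ± 0.37 (SE; 95% interval -1.17 to 0.59; edgeR adjusted p 0.977).

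Scap, the escort of SREBP proteins (chromosome 9, 110333288 to 110384950, plus strand), had 15.1 and 13.8 CPM in Cre-positive libraries, against 21.3, 21.3 and 18.6 CPM in Cre-negative libraries. Both Cre-positive libraries lay below all 3 Cre-negative libraries. It averaged 14.5 ± 0.891 CPM in Cre-positive libraries and 20.4 ± 1.59 CPM in Cre-negative libraries (SD, n = 2 and 3), a log2 fold change of -0.50 ± 0.25 (SE; 95% interval -1.07 to 0.08) that did not pass, with an edgeR adjusted p of 0.977. It stayed between -0.53 and -0.39 when each library was left out. Lower values without overlap were found in 10.2% of all genes tested. Its exons overlap those of 5830462I19Rik on the opposite strand, its deposited counts were not whole in any library, and without the use of strand, reads of the pair cannot be told apart.

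Insig1, which holds Scap back and is itself an SREBP target (chromosome 5, 28071363 to 28078662, plus strand), had 66.8 and 55.0 CPM in Cre-positive libraries, against 68.1, 94.5 and 60.1 CPM in Cre-negative libraries. Cre-negative library 2 was highest, and the groups overlapped, with a log2 fold change of -0.29 ± 0.26 (SE; edgeR adjusted p 0.977) that was -0.075 without Cre-negative library 2. Insig2, its homologue, had 44.9 and 50.8 CPM in Cre-positive libraries, against 42.2, 51.3 and 26.9 CPM in Cre-negative libraries, a log2 fold change of 0.26 ± 0.30 (SE; edgeR adjusted p 0.977) that was 0.070 without Cre-negative library 3. Cre-negative library 3 was the lowest for Insig2 by a wide margin. Stard4, a cytosolic sterol carrier, had 200.1 and 237 CPM in Cre-positive libraries, against 298, 223 and 227 CPM in Cre-negative libraries, a log2 fold change of -0.19 ± 0.24 (SE; edgeR adjusted p 0.977) that was -0.016 without Cre-negative library 1. Per kilobase of exon, the level averaged over the 5 libraries was 42.4 CPM per kb for Stard4, 37.8 for Hmgcs1 and 32.0 for Sc5d, the top of the 31 genes. The order differed between libraries: Hmgcs1 was above Stard4 in Cre-positive library 1 (51.2 against 35.8 CPM per kb) and in Cre-negative library 2 (51.5 against 39.8 CPM per kb), and Sc5d was above Hmgcs1 in the other 3 libraries. By the same mean, Mvk at 1.63, Pmvk at 1.36 and Tm7sf2 at 1.08 CPM per kb were the lowest. The length used was that of all annotated exons of a gene merged, so these orders depend on the annotation.

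In the fatty acid branch, 5 of 6 fold changes were positive, and again none passed. Acly, which splits citrate to supply acetyl-CoA, had 46.8 and 30.2 CPM in Cre-positive libraries, against 23.5, 42.4 and 26.1 CPM in Cre-negative libraries, a log2 fold change of 0.32 ± 0.34 (SE; edgeR adjusted p 0.977) that was 0.0030 without Cre-positive library 1. Acaca, acetyl-CoA carboxylase, had 49.9 and 30.6 CPM in Cre-positive libraries, against 31.4, 47.3 and 30.8 CPM in Cre-negative libraries, a log2 fold change of 0.14 ± 0.31 (SE; edgeR adjusted p 0.977), from counts that were not whole in any of the 5 libraries. Both genes were high in Cre-positive library 1 and Cre-negative library 2, and their other libraries were close together. Fasn, fatty acid synthase (chromosome 11, 120805846 to 120824547, minus strand), whose promoter is printed above, had 40.6 and 32.8 CPM in Cre-positive libraries, against 27.8, 54.7 and 34.1 CPM in Cre-negative libraries. The Cre-negative range enclosed both Cre-positive libraries. It averaged 36.7 ± 5.54 CPM in Cre-positive libraries and 38.8 ± 14.1 CPM in Cre-negative libraries (SD, n = 2 and 3), a log2 fold change of -0.08 ± 0.33 (SE; 95% interval -0.85 to 0.68; edgeR adjusted p 0.982).

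Elovl6, which extends palmitate, had 163 and 183 CPM in Cre-positive libraries, against 107, 221 and 166 CPM in Cre-negative libraries, a log2 fold change of 0.08 ± 0.31 (SE). Scd1, a stearoyl-CoA desaturase that makes oleate (chromosome 19, 44394455 to 44407879, minus strand), had 103 and 21.0 CPM in Cre-positive libraries, against 45.0, 25.8 and 27.5 CPM in Cre-negative libraries. The Cre-positive libraries held both the highest and the lowest value. It averaged 62.1 ± 58.1 CPM in Cre-positive libraries and 32.8 ± 10.7 CPM in Cre-negative libraries (SD, n = 2 and 3), a log2 fold change of 0.92 ± 0.61 (SE; edgeR adjusted p 0.977) that turned to -0.60 without Cre-positive library 1 and was 1.70 without Cre-positive library 2. Adipocyte markers, since fat expresses both desaturases, were also read: the 9 of 11 with a row summed to 49.5 and 105 CPM in Cre-positive libraries, against 102, 75.4 and 83.4 CPM in Cre-negative libraries. The members disagreed in Cre-positive library 1, where 5 of the 9 were highest (Adipoq, Plin1, Cfd, Fabp4 and Car3) and 4 were lowest (Lipe, Cidec, Plin4 and Adrb3). Adipoq, an adipocyte hormone, was at 1.35 and 0 CPM in Cre-positive libraries, against 0.958, 0.371 and 0.326 CPM in Cre-negative libraries. Plin1, a lipid droplet protein of fat cells, was at 1.16 and 0.155 CPM in Cre-positive libraries, against 0.479, 0.185 and 0.163 CPM in Cre-negative libraries. These levels were low in every library, with the highest in the library where Scd1 was also highest, and their part in the Scd1 value was not tested. Scd2, a second desaturase, had 127 and 79.6 CPM in Cre-positive libraries, against 61.8, 151 and 38.1 CPM in Cre-negative libraries, a log2 fold change of 0.30 ± 0.55 (SE; edgeR adjusted p 0.977) that reached 1.05 without Cre-negative library 2. The summed level of the fatty acid enzymes was 531 and 377 CPM in Cre-positive libraries, against 296, 542 and 323 CPM in Cre-negative libraries, with the same pair of libraries at the top as for the sterol enzymes.

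The sterol and fatty acid branches had nearly the same median fold change. The median log2 fold change was 0.21 over the 19 sterol enzymes, of which 15 were positive, and 0.22 over the 6 fatty acid enzymes, a difference of -0.01. Within groups, the mean log2 CPM of the sterol enzymes had a pooled SD of 0.43 and that of the fatty acid enzymes 0.44, while the difference of both means within a library had an SD of 0.19. Both medians depended on single libraries. Without Cre-positive library 1 they were -0.08 for sterol and -0.13 for fatty acid enzymes, and without Cre-positive library 2 they were 0.53 and 0.56. Without Cre-negative library 2 they were 0.58 for sterol and 0.50 for fatty acid enzymes. The difference between the branches stayed between -0.03 and 0.08 when each library was left out.

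Neighbouring pathways held no called gene either. Lbr, a sterol C14 reductase outside the 31 genes, had a log2 fold change of 0.59 ± 0.35 (SE; edgeR adjusted p 0.977). Among 8 genes of SREBP processing, 5 were positive and 3 negative. The log2 fold change was 0.43 ± 0.21 for Rnf139, a ubiquitin ligase of the endoplasmic reticulum, and 0.37 ± 0.22 for Mbtps2, the site-2 protease (SE). Mbtps1, the site-1 protease, went the other way, at -0.33 ± 0.22 (SE). It had 40.4 and 48.2 CPM in Cre-positive libraries, against 49.4, 58.6 and 58.7 CPM in Cre-negative libraries. Of 14 genes of sterol uptake and trafficking, 5 were positive. Mylip, the ligase that degrades the LDL receptor, had 32.1 and 35.1 CPM in Cre-positive libraries, against 29.2, 15.9 and 14.0 CPM in Cre-negative libraries, a log2 fold change of 0.78 ± 0.35 (SE). The groups of Mylip did not overlap, nor did those of Rnf139, Mbtps2 and Mbtps1 or, below, Scarb1, Nr1h2, Nus1 and Lpin1. Non-overlap was found in 18.0% of all genes tested. Scarb1, an HDL receptor, averaged 0.795 ± 0.245 CPM in Cre-positive libraries and 2.49 ± 1.49 CPM in Cre-negative libraries (SD, n = 2 and 3). These levels rest on few counts, 5 and 4 in Cre-positive libraries against 17, 6 and 14 in Cre-negative libraries. Its log2 fold change was -1.61 ± 0.75 (SE; 95% interval -3.37 to 0.15; edgeR adjusted p 0.977).

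Of 11 tested genes of sterol esterification, efflux and the LXR pathway, 9 were negative, and 9 were lowest in Cre-positive library 1. Over all 14352 genes tested, 4165 were lowest in that library, more than in any other library. Nr1h2, an LXR receptor, had a log2 fold change of -0.50 ± 0.30, and Soat1, which esterifies cholesterol, 0.63 ± 0.45 (SE). That library was also lowest for most enterocyte markers, whose part in these levels was not tested. Of 10 genes of isoprenoid use, 6 were positive, with 0.49 ± 0.26 for Nus1, a subunit of the dehydrodolichyl diphosphate synthase, and -0.65 ± 0.40 for Rabggta, a Rab prenyltransferase subunit (SE). Of 18 further genes of fatty acid synthesis and elongation, 8 were positive and 10 negative. At an unadjusted p under 0.05 by edgeR, 1 of the 18 passed, against 3.38% of all genes tested. This was Hsd17b12, the ketoacyl reductase of elongation, with 117 and 63.7 CPM in Cre-positive libraries, against 41.0, 63.9 and 53.3 CPM in Cre-negative libraries, a log2 fold change of 0.78 ± 0.32 (SE) with an edgeR adjusted p of 0.977. Me1, the malic enzyme that supplies NADPH, had 35.0 and 124 CPM in Cre-positive libraries, against 397, 282 and 92.4 CPM in Cre-negative libraries, a log2 fold change of -1.69 ± 0.75 (SE). Of 11 genes of fatty acid activation and triglyceride synthesis, 9 were negative, with -0.75 ± 0.33 for Lpin1, a phosphatidate phosphatase, and -0.81 ± 0.47 for Acsl4, an acyl-CoA synthetase (SE). The lowest adjusted p in any of these lists was 0.977 by edgeR.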

How the data were processed

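Deposited values were estimated counts per gene for 5 libraries, made by the authors with Partek on mm10, per the submitters' processing notes; use of strand, annotation, aligner and how reads were counted: not given in the sources used here. Values that were not whole (tolerance 0.005) made up 19.6 to 21.7% of each library, and how the fractions arose is not stated; 12 of the 31 genes had such values in at least 1 library and 7 in all 5, and 9 overlapped exons of a gene on the opposite strand. Counts were rounded, 4846 genes were removed by filterByExpr (minimum count 10), and 14352 were fitted with edgeR 4.0.16 in R 4.3.3 (TMM scaling, robust quasi-likelihood, Benjamini-Hochberg over all genes, threshold 0.05). The biological coefficient of variation was 33.1%. CPM were computed with TMM-scaled library sizes. The procedure was tested on simulated data of 14352 genes. Alternatives were other scalings and filters, a fit without robust estimation, DESeq2 1.42.0, limma-voom (limma 3.58.1) and leaving out each library. Exon positions and lengths came from GENCODE M21 (GRCm38). Libraries 1 to n were numbered within a group in the order of the samples and pair no mice. The labels number the mice individually, 1 for every library. An exact permutation test of 2 against 3 libraries cannot go below p = 0.1, so none was used.

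The 31 genes and all lists were chosen with earlier results of these data known. Full statistics are given for the 6 regulators and transport genes and for Hmgcs1, Sqle, Fasn and Scd1. They are also given for the 6 sterol and 4 fatty acid enzymes with the smallest unadjusted p. Each neighbouring list is named by its 2 genes with the smallest unadjusted p, and Mbtps1 is added. Some genes of the list of further sterol enzymes are not reported here.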

Additional observations from a re-analysis of the deposited data

How the results depend on the processing

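None of the 31 genes was called under any scaling, filter or tool tried, or without any 1 library. Over all genes, edgeR called 0, DESeq2 called 19, and leaving out each library gave 0 to 58 calls, the highest without Cre-positive library 2. Srebf2 turned from -0.03 to 0.0012 with RLE scaling, 0.0012 with DESeq2, 0.0081 with limma-voom and 0.011 with no filter, and Sc5d to -0.00072 with limma-voom; the cause was not tested. The other 241 of 246 fold changes kept their direction. They include those of a fit without robust estimation, which equal the main ones and so could not turn. Leaving out each library turned 18 genes. Their log2 fold changes ran from -0.15 to 0.58 for Hmgcs1, -0.18 to 0.71 for Idi1, -0.082 to 0.83 for Fdps, -0.064 to 0.95 for Fdft1, -0.49 to 0.66 for Sqle, -0.38 to 0.93 for Cyp51, -0.10 to 0.55 for Tm7sf2, -0.28 to 0.46 for Msmo1 and -0.18 to 0.76 for Nsdhl. They ran from -0.38 to 0.45 for Sc5d, -0.25 to 0.15 for Dhcr7, -0.92 to 0.19 for Srebf1, -0.18 to 0.22 for Srebf2, -0.22 to 0.49 for Acaca, -0.25 to 0.24 for Fasn, -0.13 to 0.34 for Elovl6, -0.60 to 1.70 for Scd1 and -0.045 to 1.05 for Scd2. With 1 Cre-positive library left, that library was assumed to vary like the Cre-negative ones. A minimum of 5 CPM in 2 libraries left Mvk and Pmvk untested. No paired analysis was possible because the labels give no replicate numbers shared between groups. At this depth, changes of 2-fold were seldom called in simulated data, so an adjusted p above the threshold does not show that the genes were equal.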
